A study of Mus musculus with 17 samples.

Results

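The genes that regulate how mitochondrial genes are transcribed were followed in RNA pulled down with tagged ribosomes from cortical neurons of mice with and without experimental autoimmune encephalomyelitis (EAE), an induced autoimmune model of multiple sclerosis. They are members by name and by their place in the textbook scheme: the coactivators Ppargc1a, Ppargc1b and Pprc1, the nuclear transcription factors Nrf1, Gabpa and Esrra, and the mitochondrial transcription proteins Tfam, Tfb1m, Tfb2m and Polrmt. These 10 genes are 10 of the 39017 rows of the count table, and all 10 passed the filter on low counts that left 22242 genes for testing. Libraries of 9 males (4 controls and 5 with EAE) and of 8 females (4 controls and 4 with EAE) were read, 1 for each mouse. All mice, controls included, were adult NSE-Cre:RiboTag animals on the C57BL/6 J background, in which a Cre recombinase driven by the neuron specific enolase promoter (rNSEII-Cre) switches on an HA tag on the ribosomal protein Rpl22. EAE mice received a peptide of myelin oligodendrocyte glycoprotein in complete Freund's adjuvant together with pertussis toxin, and their cortex was taken in the chronic stage of disease. Control mice, labelled NL, were healthy and matched for age and sex. The design asks whether the neuronal transcriptome responds to EAE differently in male and female mice.

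Mitochondria carry a small genome of their own, but nearly all of their proteins are encoded in the nucleus, so that building a mitochondrion needs both genomes to be read in step. In the current textbook scheme, the PGC-1 coactivators bind the nuclear factors NRF1, GABPA and ERR alpha (the product of Esrra), which act on promoters of respiratory chain genes and of the mitochondrial transcription machinery. Inside the organelle TFAM packages and bends mitochondrial DNA, TFB2M opens the promoter for the RNA polymerase POLRMT, and TFB1M methylates the small ribosomal RNA. Neurons depend on oxidative phosphorylation for synaptic transmission, and PGC-1 alpha is expressed strongly in some classes of cortical interneurons. In NSE-Cre:RiboTag cortex the study found no significant overlap of HA staining with parvalbumin-expressing interneurons. The levels below may therefore not cover those cells.

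The promoter windows of the genes whose values differed most between the groups, and of those that held a motif of the scheme above, are shown here. They run from 250 bases before to 50 bases after the transcription start and were taken from RefSeq (GRCm38.p6). Windows of 9 of the 10 genes were searched. Ppargc1b was left out of the search, so its window is not shown, although its values differed between the male groups. The name in each line is followed by the position and strand. Capitals mark a match, on either strand, to the NRF1 motif GCGCATGCG or the GABPA motif CCGGAAG, and the ESRRA motif AAGGTCA was searched in the same way.
Esrra, chr19:6921759-6922058 (minus strand): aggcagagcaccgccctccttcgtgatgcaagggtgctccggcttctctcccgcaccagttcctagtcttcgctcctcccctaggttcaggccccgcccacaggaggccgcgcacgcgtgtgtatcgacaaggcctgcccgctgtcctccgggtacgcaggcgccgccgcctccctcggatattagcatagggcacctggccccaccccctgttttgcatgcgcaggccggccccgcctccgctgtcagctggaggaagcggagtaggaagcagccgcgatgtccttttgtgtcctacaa
Gabpa, chr16:84834874-84835173 (plus strand): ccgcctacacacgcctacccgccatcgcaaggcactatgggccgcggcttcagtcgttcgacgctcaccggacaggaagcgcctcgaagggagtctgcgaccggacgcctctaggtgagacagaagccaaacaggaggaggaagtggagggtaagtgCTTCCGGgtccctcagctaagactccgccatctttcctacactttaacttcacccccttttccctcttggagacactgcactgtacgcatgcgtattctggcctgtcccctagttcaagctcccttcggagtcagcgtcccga
Tfam, chr10:71237995-71238294 (minus strand): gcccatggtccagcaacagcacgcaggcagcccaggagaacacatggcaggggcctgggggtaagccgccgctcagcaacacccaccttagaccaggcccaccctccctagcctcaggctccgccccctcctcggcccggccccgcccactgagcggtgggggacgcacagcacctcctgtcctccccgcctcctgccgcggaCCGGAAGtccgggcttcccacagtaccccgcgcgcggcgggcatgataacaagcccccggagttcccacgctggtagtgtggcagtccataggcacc
Tfb2m, chr1:179546227-179546526 (minus strand): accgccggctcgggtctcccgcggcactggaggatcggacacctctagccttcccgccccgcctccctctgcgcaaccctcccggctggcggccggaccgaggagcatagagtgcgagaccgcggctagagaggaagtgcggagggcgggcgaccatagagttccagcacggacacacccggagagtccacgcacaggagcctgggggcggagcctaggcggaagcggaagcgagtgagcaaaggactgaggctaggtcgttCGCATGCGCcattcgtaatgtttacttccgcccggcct
Polrmt, chr10:79746532-79746831 (minus strand): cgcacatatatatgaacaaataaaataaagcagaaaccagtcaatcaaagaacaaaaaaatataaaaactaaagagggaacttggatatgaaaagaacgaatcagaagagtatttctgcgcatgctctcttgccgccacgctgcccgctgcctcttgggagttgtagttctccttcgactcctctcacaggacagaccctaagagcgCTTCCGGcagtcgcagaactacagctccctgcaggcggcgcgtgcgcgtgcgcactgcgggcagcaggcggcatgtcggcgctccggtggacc
Esrra had no match to any of the 3 motifs. Tfam and Polrmt had 1 match each to CCGGAAG, which begins 47 and 43 bases before the RefSeq start. Tfb2m had 1 match to GCGCATGCG, which begins 13 bases after its RefSeq start. Gabpa had the same GABPA motif 93 bases before its own RefSeq start. In the GENCODE M21 annotation used for the positions below, Tfam begins at 71238280 (minus strand) and Gabpa at 84834925 (plus strand), upstream of these RefSeq starts. The matches of these genes therefore lie within the gene spans of that annotation. Among all 32851 promoter windows of this length, 1.75% held GCGCATGCG, 8.86% held CCGGAAG and 4.72% held AAGGTCA. A match is a description of the letters and not of binding.

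Depth did not limit the detection of any of these genes. Male libraries held 85800542 to 98433383 counts in controls and 70613567 to 76768267 in EAE. Female libraries held 83664876 to 92822398 counts in controls and 66155142 to 86691316 in EAE. The lowest count of any of the 10 genes in any library was 296, for Tfb1m. Markers of neurons were present in all 17 libraries (a summed level of 10849 to 15672 CPM over 10 genes, where CPM is the count scaled to library size), but RNA of other cells was present too. Astrocyte markers summed to 7152 to 9795 CPM in male control and 5348 to 6512 CPM in male EAE mice, without overlap, and 7 of 10 were called lower, against 20.4% of all genes tested called lower in males and 24.4% without overlap. The corresponding ranges were 5074 to 9032 and 4978 to 5873 CPM in female control and EAE mice. Oligodendrocyte markers summed to 6709 to 9445 CPM over the 17 libraries, microglia markers to 35.8 to 112 CPM, and endothelial and pericyte markers to 20.1 to 52.7 CPM. In males 2 of 10 oligodendrocyte markers were called higher and 2 lower. Of the microglia markers 1 of 10 was called higher, and of the endothelial and pericyte markers 3 of 9 were called higher and 1 lower. The shares over all genes tested in males were 19.2% higher and 20.4% lower. T and B cell markers summed to 65.4 to 101 CPM in male control and 90.9 to 186 CPM in male EAE mice, and to 100.4 to 117 and 99.0 to 166 CPM in female control and EAE mice, with overlap in both sexes. Of the 9 of these markers tested, 3 were called higher in males, against 19.2% of all genes. In females 1 was called higher, against 0.0584% of all genes called in either direction. Ms4a1 was at 0 in 14 libraries. Of the variance, 62.8% lay on the first principal component. Male control 4 and female control 2 lay farthest out on it, at -60.1 and -46.6, while the other libraries lay between -25.9 and 39.8. The part of other cell types and of these libraries in the results below was not tested unless values are given. Fewer neurons and less RNA per neuron cannot be told apart in such samples.

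**Figure D1:**
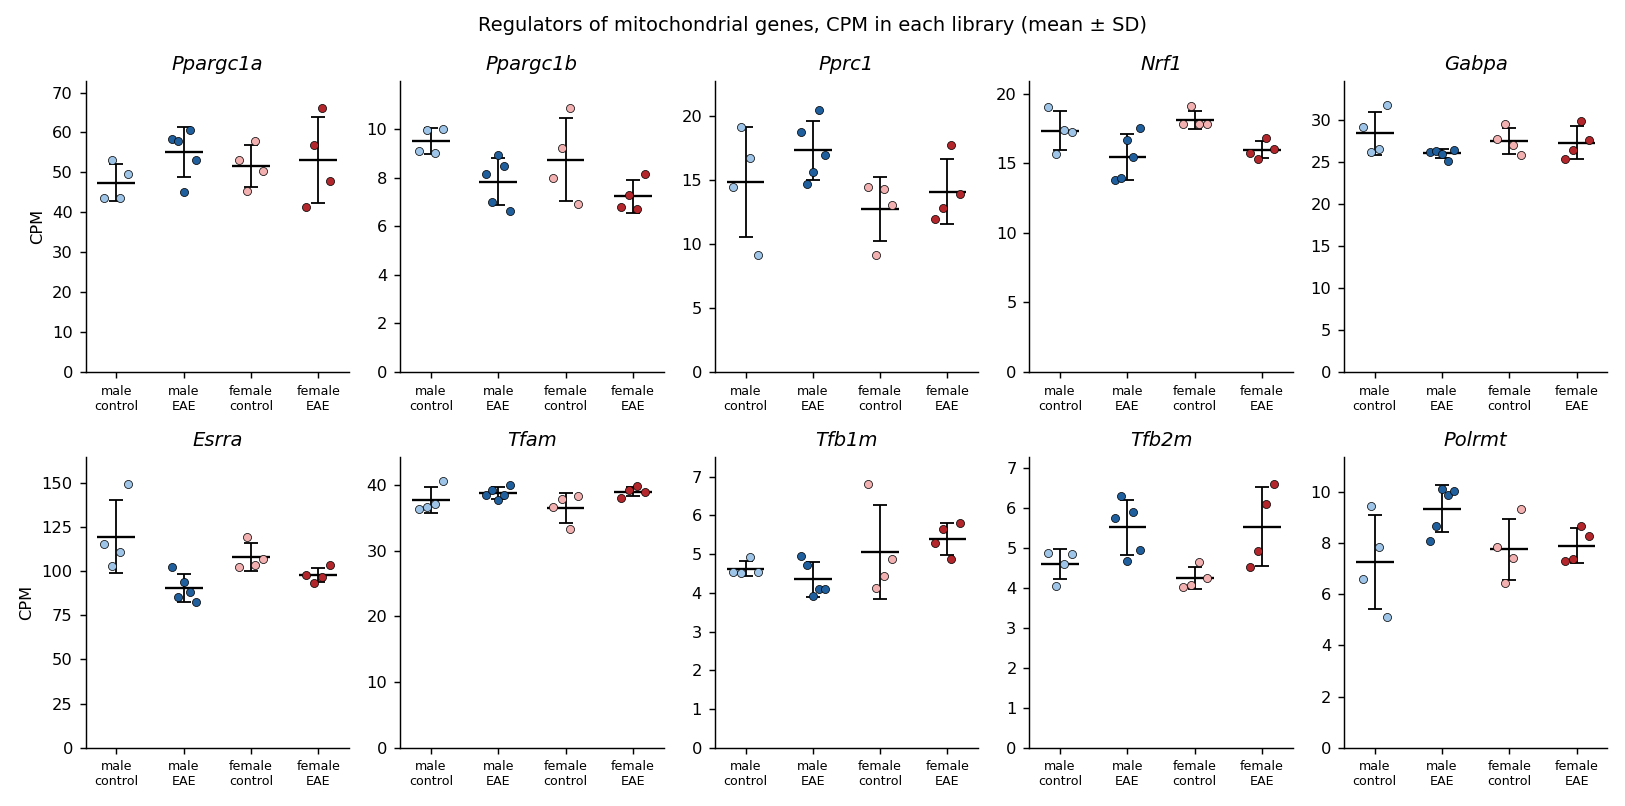
Level of each of the 10 regulators in every library, in CPM on a linear axis from 0, by group (points, libraries; bars, mean ± SD; n = 4, 5, 4 and 4 from left to right). Esrra and Ppargc1b show male EAE mice entirely below male controls, while Tfam lies within 33.3 to 40.7 CPM in all 17 libraries.

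Esrra was the most abundant of the 10 genes, and Tfam the steadiest. Per kilobase of exon, the mean level over the 17 libraries was 23.5 CPM per kb for Esrra, which lies at the 88.5th percentile of the genes tested, and its lowest library (18.9) was above the highest library of every other member. Tfam (8.58 CPM per kb) and Ppargc1a (7.89) came next and overlapped, then Gabpa (4.80), which overlapped with neither neighbour. Pprc1 (2.37), Ppargc1b (2.08), Tfb2m (1.78), Polrmt (1.74), Nrf1 (1.62) and Tfb1m (1.34) followed, each overlapping with the next, so their order does not stand out from the spread. Ppargc1a was therefore present at 3.79 times the level of Ppargc1b per length. The coefficient of variation over the 17 libraries was 4.57% for Tfam and 6.67% for Gabpa, and rose to 21.5% for Pprc1.

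Male mice with EAE differed from male controls in 3 of the 10 genes: Esrra and Ppargc1b were lower and Polrmt was higher. Calls are by edgeR's quasi-likelihood test at a false discovery rate under 0.1 and a log2 fold change beyond 0.25 in either direction. These 3 genes are 30% of the regulators, while 39.6% of all genes tested were called in males (19.2% higher and 20.4% lower), so the share was not above the background. The median log2 fold change was -0.02 for the 10 regulators and 0.02 for all genes tested. The groups did not overlap for 2 of the 10 genes, Esrra and Ppargc1b, against 24.4% of all genes tested. In female mice 0 of 10 genes were called, against 0.0584% of all genes tested, and 1 gene (Tfb2m) had an unadjusted p under 0.05, against 19.8% of all genes. DESeq2 with its independent filtering called 1 gene in females, Tfb2m, against 8.83% of all genes tested, and DESeq2 without it (4.41% of all genes), limma voom and edgeR's likelihood ratio test called 0. The female groups did not overlap for 1 gene, Nrf1, against 7.43% of all genes tested.

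**Figure D2:**
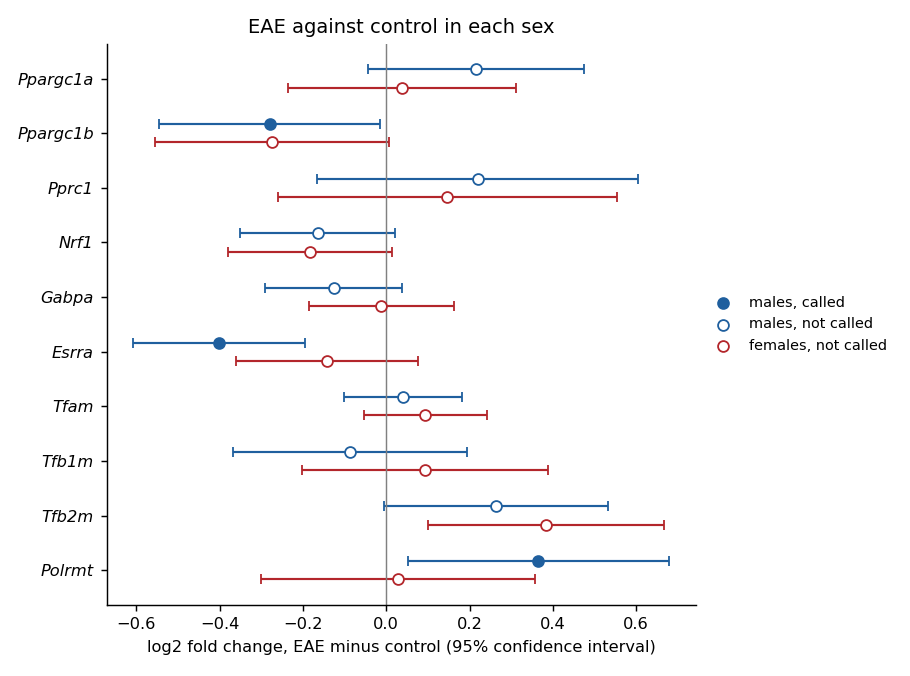
Log2 fold change of each regulator, EAE minus control, with its 95% confidence interval from edgeR, in males (blue) and females (red). Filled points passed the test. Esrra at -0.40, Ppargc1b at -0.28 and Polrmt at 0.37 in males are filled, no female point is, and the intervals of the sexes overlap for every gene.

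The PGC-1 coactivators did not move as a group. Ppargc1a (ENSMUSG00000029167, chromosome 5 of GRCm38, 51454250 to 51567726, minus strand) encodes PGC-1 alpha, the coactivator best known for raising mitochondrial content in muscle, fat and brain. Its level was 43.5, 53.1, 43.6 and 49.6 CPM in male controls and 58.5, 58.0, 45.2, 60.7 and 53.1 CPM in male EAE mice. Of the male EAE mice 3 lay well above every control, male EAE 5 was level with the highest control, and male EAE 3 lay within the control range. The log2 fold change was 0.22 ± 0.124 (standard error; edgeR adjusted p = 0.193). Without male EAE 3, the lowest library of its group, the value was 0.278 and passed (adjusted p = 0.0892), as it did with upper quartile scaling (0.273, adjusted p = 0.0981). In female mice the levels were 53.1, 45.4, 58.0 and 50.3 CPM in controls and 41.4, 56.8, 66.2 and 47.8 CPM in EAE. The female EAE mice held both the lowest and the highest value, and the log2 fold change was 0.04 (95% interval -0.24 to 0.31).

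Ppargc1b (ENSMUSG00000033871, chromosome 18, 61298136 to 61400431, minus strand) encodes PGC-1 beta, a close relative that binds many of the same partners, ERR alpha among them. It was measured at 9.11, 9.97, 9.01 and 10.01 CPM in male controls and 8.14, 7.01, 8.93, 8.50 and 6.64 CPM in male EAE mice. Every male EAE mouse was below every male control, but the gap between the groups was only 0.0874 CPM. The log2 fold change was -0.28 ± 0.126 (standard error; edgeR adjusted p = 0.0932), the weakest of the calls. It was lost in 9 of the 17 fits that leave out 1 library and in 10 of 15 other settings, among them a false discovery rate of 0.05, DESeq2's size factors in edgeR and the fit without a filter, with log2 fold changes from -0.33 to -0.10. Female controls had 7.98, 9.22, 10.9 and 6.92 CPM and female EAE mice 6.80, 7.28, 6.70 and 8.15 CPM. The female groups overlapped, and the edgeR estimate of -0.27 on the log2 scale (adjusted p = 0.258, standard error 0.134) was close in size to the male one.

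Pprc1 (ENSMUSG00000055491, chromosome 19, 46044886 to 46072915, plus strand) encodes the PGC-1-related coactivator, which in human and rodent cells responds to serum and growth signals. It ranged from 9.10 to 19.1 CPM in male controls and from 14.7 to 20.4 CPM in male EAE mice. The female ranges were 9.13 to 14.4 CPM without and 11.9 to 17.7 CPM with EAE. The lowest libraries of the whole set were male control 4 and female control 2. The log2 fold change was 0.22 in males (standard error 0.184, adjusted p = 0.386 from edgeR) and 0.15 in females (adjusted p = 0.693). In males it was 0.0628 without male control 4 and -0.367 with 1 surrogate variable in the model, and neither passed. Of its exon bases, 177 (2.82%) lie opposite exons of Ldb1, and whether strand was used in counting is not given in the sources used here.

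Because both coactivators were measured in each library, their ratio does not depend on library scaling. It can still depend on length and GC content. Ppargc1a has 6592 exon bases and 41.7% GC, and Ppargc1b has 3990 exon bases and 57.8% GC. The log2 ratio of Ppargc1a to Ppargc1b counts was 2.25, 2.41, 2.27 and 2.31 in male controls and 2.84, 3.05, 2.34, 2.83 and 2.999 in male EAE mice. All male EAE mice but male EAE 3 lay above every control. The mean was 2.31 ± 0.0710 (SD, n = 4) in male controls and 2.81 ± 0.281 (SD, n = 5) in male EAE mice, a difference of 0.50 (exact permutation test over mice, two-sided, p = 0.0238, where the smallest possible p is 0.00794). The test on medians gave 0.552 with an exact p of 0.111, and leaving out 1 mouse at a time gave differences of 0.442 to 0.619 with exact p values from 0.0286 to 0.0714, above 0.05 in 8 of the 9 cases and below it only without male EAE 3. In females the mean was 2.58 ± 0.264 (SD, n = 4) in controls and 2.86 ± 0.351 (SD, n = 4) in EAE, with overlap (difference 0.28, exact permutation p = 0.286). Over the 4 ratio tests made here, 2 coactivator and 2 paralog ratios, the Benjamini-Hochberg adjusted p of the male coactivator ratio was 0.0476. With a GC offset the male log2 fold changes were 0.0242 for Ppargc1a and -0.104 for Ppargc1b, and with 1 surrogate variable -0.0599 and -0.107. A gene length offset gave 0.0994 and -0.23. The ratio itself was not tested under these settings.

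**Figure D3:**
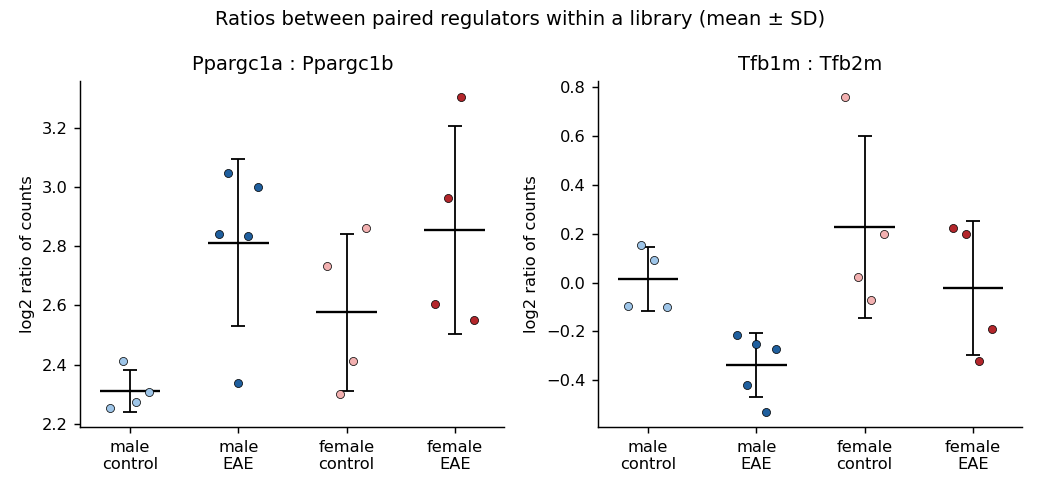
Log2 ratio of Ppargc1a to Ppargc1b (left) and of Tfb1m to Tfb2m (right) within each library, by group (points, libraries; bars, mean ± SD). The left ratio is higher in male EAE mice with 1 exception, male EAE 3 at 2.34, and the right ratio is no higher than -0.213 in any male EAE mouse and no lower than -0.102 in any male control.

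Of the nuclear transcription factors, Esrra gave the clearest difference of the 10 genes. Esrra (ENSMUSG00000024955, chromosome 19, 6910977 to 6921813, minus strand) encodes ERR alpha, an orphan nuclear receptor that drives genes of oxidative phosphorylation and fatty acid oxidation together with PGC-1. Its level was 115, 103, 111 and 149 CPM in male controls and 102, 85.6, 93.8, 88.1 and 82.8 CPM in male EAE mice. The highest male EAE mouse lay just below the lowest male control, and male control 4 stood above the rest. The mean fell from 120 ± 20.5 CPM in the 4 controls to 90.5 ± 7.79 CPM in the 5 EAE mice (mean ± SD), or -0.40 on the log2 scale (standard error 0.0982, edgeR adjusted p = 0.00691). In females the values were 102, 119, 103 and 107 CPM in controls and 97.8, 93.6, 96.6 and 104 CPM in EAE mice. The female groups overlapped through 1 EAE mouse, with a log2 fold change of -0.14 (95% interval -0.36 to 0.08, adjusted p = 0.440).
The male change passed in all 17 fits that leave out 1 library and in 14 of 15 other settings. Its size was -0.26 without male control 4 (adjusted p = 0.0415), and with 1 surrogate variable in the model, where 7 genes in all were called in males, it was -0.12 and did not pass (adjusted p = 0.810). With a gene length offset it was -0.384 (adjusted p = 0.00827). Of the exon bases of Esrra, 73 (1.66%) lie opposite exons of Trmt112, a methyltransferase partner that was itself called lower in males (log2 fold change -0.26, adjusted p = 0.0721 from edgeR).

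Nrf1 (ENSMUSG00000058440, chromosome 6, 30047988 to 30153458, plus strand) encodes nuclear respiratory factor 1, which binds promoters of respiratory subunits and of Tfam. Its values were 19.1, 15.7, 17.4 and 17.3 CPM in male controls and 13.8, 13.9, 16.7, 15.4 and 17.5 CPM in male EAE mice. The male groups overlapped, and the log2 fold change was -0.16 (standard error 0.0890, adjusted p = 0.163 from edgeR). In females the levels were 17.9, 19.1, 17.8 and 17.8 CPM in controls and 15.8, 15.3, 16.8 and 16.1 CPM in EAE mice. Every female EAE mouse lay below every female control. The edgeR estimate of -0.18 on the log2 scale (adjusted p = 0.278, standard error 0.0940) did not pass. With a gene length offset the male value was -0.417 and passed (adjusted p = 0.0107). Nrf1 has the longest exon sequence of the 10 genes, 10282 bases.

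Gabpa (ENSMUSG00000008976, chromosome 16, 84834925 to 84863779, plus strand) encodes the DNA-binding subunit of nuclear respiratory factor 2, an ETS family factor. The mean was 28.4 ± 2.59 CPM in male controls (SD, n = 4), 26.1 ± 0.505 CPM in male EAE (SD, n = 5), 27.6 ± 1.55 CPM in female controls (SD, n = 4) and 27.3 ± 1.94 CPM in female EAE mice (SD, n = 4). The groups overlapped in both sexes. Log2 fold changes were -0.13 in males (standard error 0.0784, adjusted p = 0.227 from edgeR) and -0.01 in females (95% interval -0.19 to 0.16), and of the settings tried the male one passed only with a GC offset (-0.328, adjusted p = 0.0113). An exon stretch of 397 bases (6.98% of the gene's exons) lies opposite Atp5j, a subunit of ATP synthase that was called lower in males (log2 fold change -0.44, adjusted p = 0.00801 from edgeR).

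Among the proteins that transcribe mitochondrial DNA, the polymerase was higher in male EAE mice, while Tfam was nearly level across the groups. Tfam (ENSMUSG00000003923, chromosome 10, 71225464 to 71238280, minus strand) had 36.4, 36.7, 37.1 and 40.7 CPM in male controls and 38.5, 39.2, 37.7, 38.4 and 40.1 CPM in male EAE mice. Female controls had 36.7, 37.9, 33.3 and 38.4 CPM and female EAE mice 38.0, 39.3, 39.8 and 39.0 CPM. The groups overlapped in both sexes. The log2 fold change was 0.04 in males (95% interval -0.10 to 0.18) and 0.09 in females (95% interval -0.05 to 0.24), so that changes beyond 0.25 in either direction lie outside both intervals.

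Polrmt (ENSMUSG00000020329, chromosome 10, 79736123 to 79746581, minus strand), the single-subunit polymerase of mitochondria, had 6.60, 9.46, 7.84 and 5.13 CPM in male controls and 8.09, 8.66, 10.1, 9.87 and 10.1 CPM in male EAE mice. The male groups overlapped because male control 2 lay within the EAE range, and male control 4 was the lowest library of all. The log2 fold change was 0.37 ± 0.150 (standard error; edgeR adjusted p = 0.0662). The call was lost without male control 1 (0.322, adjusted p = 0.16), male control 4 (0.249, adjusted p = 0.215), male EAE 3 (0.335, adjusted p = 0.112), male EAE 4 (0.349, adjusted p = 0.112) or male EAE 5 (0.326, adjusted p = 0.141), and without both male control 4 and female control 2 (0.249, adjusted p = 0.18). It was also lost with each sex fitted alone (0.354, adjusted p = 0.104), with the replicate number as a block (0.342, adjusted p = 0.15), at a false discovery rate of 0.05, and with 1 surrogate variable, where the value was -0.0211. Female controls had 7.84, 6.44, 7.44 and 9.33 CPM and female EAE mice 7.30, 7.37, 8.68 and 8.30 CPM, with overlap and a log2 fold change of 0.03 (95% interval -0.30 to 0.36).

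Tfb1m and Tfb2m are paralogs that descend from a ribosomal RNA methyltransferase, and their log2 fold changes in males had opposite signs, though neither passed the test. Tfb1m (ENSMUSG00000036983, chromosome 17, 3519256 to 3557781, minus strand) had 4.55, 4.51, 4.92 and 4.52 CPM in male controls and 4.95, 4.71, 3.91, 4.09 and 4.09 CPM in male EAE mice. Tfb2m (ENSMUSG00000026492, chromosome 1, 179528055 to 179546267, minus strand) had 4.86, 4.05, 4.61 and 4.85 CPM in male controls and 5.74, 6.30, 4.66, 5.90 and 4.94 CPM in male EAE mice. Neither pair of groups was separate on its own gene: the log2 fold change was -0.09 for Tfb1m (standard error 0.134, adjusted p = 0.656 from edgeR) and 0.26 for Tfb2m (standard error 0.129, adjusted p = 0.122). Tfb2m passed in males in 5 of 15 other settings, among them DESeq2 (0.273, adjusted p = 0.0833) and a gene length offset (0.434, adjusted p = 0.0203). In the exons of Tfb1m, 142 bases (3.93%) lie opposite Tiam2.
Within a library the log2 ratio of Tfb1m to Tfb2m was -0.0955, 0.154, 0.0936 and -0.102 in male controls and -0.213, -0.421, -0.253, -0.528 and -0.271 in male EAE mice. Every male EAE mouse lay below every male control. Ratios of gene pairs outside the regulators were not computed, so no share over all pairs can be given. Of single genes tested, 24.4% did not overlap between the male groups. The mean was 0.0127 ± 0.131 (SD, n = 4) against -0.337 ± 0.132 (SD, n = 5), a difference of -0.35 (p = 0.00794 by a two-sided exact permutation test, which is the lowest value these group sizes allow, and 0.0318 adjusted over the 4 ratio tests). The difference stayed between -0.388 and -0.302 when 1 mouse was left out, with exact p values of 0.0179 or 0.0286.
In female mice Tfb2m had 4.02, 4.06, 4.64 and 4.24 CPM in controls and 4.51, 4.92, 6.08 and 6.61 CPM in EAE. Of the female EAE mice 3 lay above every control, and the edgeR log2 fold change was 0.38 (standard error 0.135, unadjusted p = 0.0108). After adjustment over all genes it missed the threshold by edgeR (adjusted p = 0.190). By DESeq2 with independent filtering Tfb2m passed (adjusted p = 0.0810). Tfb1m ranged from 4.13 to 6.81 CPM in female controls and from 4.87 to 5.79 CPM in female EAE mice. The female log2 ratio of the paralogs was 0.227 ± 0.372 (SD, n = 4) in controls and -0.0218 ± 0.276 (SD, n = 4) in EAE mice, with overlap (difference -0.25, exact permutation p = 0.371, smallest possible p 0.0286).

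The response to EAE was not shown to differ between the sexes for any of the 10 genes. By edgeR's quasi-likelihood test of the male response minus the female response, 0 of 10 passed and 0 had an unadjusted p under 0.05, against 0% of all genes tested called and 933 of 22242 genes (4.19%) at an unadjusted p under 0.05. DESeq2, limma voom and edgeR's likelihood ratio test also called 0 of the 10. The largest differences were 0.34 for Polrmt (95% interval -0.12 to 0.79, unadjusted p = 0.136) and -0.26 for Esrra (95% interval -0.56 to 0.04, unadjusted p = 0.0861), and the adjusted p was 0.807 or above for all 10. For Ppargc1b the difference was -0.0056, with an interval of -0.39 to 0.38. These intervals leave room for differences as large as the male responses themselves.
Healthy male and female mice were likewise compared. None of the 10 genes was called between female and male controls (0 of 10 at an unadjusted p under 0.05 by edgeR, 0 by DESeq2, against 0.0674% of all genes tested called), and log2 fold changes, female minus male, ran from -0.22 for Pprc1 to 0.13 for Tfb1m.

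The genes around these regulators were grouped into lists by their place in the scheme. Signals upstream of Ppargc1a, such as AMP-activated kinase, calcium signalling and CREB, were mostly higher in male EAE mice: 15 of 26 measured genes rose and 2 fell, with a median log2 fold change of 0.31, against 39.6% of all genes called and a median of 0.02 over all genes. Prkaa1, the catalytic alpha 1 subunit of AMP-activated kinase, rose from 14.3 ± 2.46 CPM in the 4 controls to 22.2 ± 2.20 CPM in the 5 EAE mice (mean ± SD), or by 0.63 on the log2 scale. Creb1, a transcription factor that binds the Ppargc1a promoter in liver, rose from a mean of 43.0 ± 1.83 (SD, n = 4) to 57.9 ± 5.15 CPM (SD, n = 5; log2 fold change 0.43). Stk11, the kinase LKB1 that activates AMP-activated kinase, fell from a mean of 154 ± 15.0 (SD, n = 4) to 113 ± 11.7 CPM (SD, n = 5; log2 fold change -0.44), and Prkag1, the gamma 1 subunit of that kinase, by 0.43 on the log2 scale. With a gene length offset 9 rose and 1 fell (median 0.141), and without male control 4 and female control 2 together 11 rose and 2 fell, and with 1 library left out 10 (without male control 4) to 18 rose. With 1 surrogate variable 0 genes were called on this or any of the lists below, and the median of the upstream signals was 0.0513. Camk2a of this list is also on the list of neuronal markers, of which 5 of 10 rose and 1 fell in males, against 19.2% and 20.4% of all genes.

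Among 23 nuclear partners of the regulators, 7 rose and 3 fell in males (median 0.16), or 43.5% called, near the 39.6% of all genes. Esrrg, the receptor ERR gamma that is related to ERR alpha and binds the same DNA motif, rose from 19.3 ± 6.11 CPM in the 4 controls to 37.0 ± 6.37 CPM in the 5 EAE mice (mean ± SD; log2 fold change 0.94, adjusted p = 0.00541 from edgeR), while Esrra fell. In females Esrrg had 21.2 ± 4.78 CPM in controls and 31.6 ± 5.05 CPM in EAE mice (SD, n = 4 each; 0.58, adjusted p = 0.193). Ep300, an acetyltransferase that PGC-1 alpha recruits, rose by a log2 fold change of 0.80. Ppara, the fatty acid receptor that PGC-1 alpha coactivates, fell from a mean of 3.32 ± 0.71 (SD, n = 4) to 2.04 ± 0.226 CPM (SD, n = 5; log2 fold change -0.70), and the thyroid hormone receptor Thra from a mean of 1425 ± 117 (SD, n = 4) to 1108 ± 83.6 CPM (SD, n = 5; log2 fold change -0.36). With a gene length offset the split of this list was 4 higher and 5 lower.

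Nuclear genes that the factors act on fell for the most part in male EAE mice. Of 27 measured target genes 16 fell and 2 rose, with a median log2 fold change of -0.36, against 20.4% of all genes called lower and 19.2% higher. Atp5o, a stalk subunit of ATP synthase, fell from 57.2 ± 16.8 CPM in the 4 controls to 29.8 ± 5.59 CPM in the 5 EAE mice (mean ± SD), or -0.94 on the log2 scale. Cox4i1, a subunit of complex IV, had a log2 value of -0.89 and also fell. Tomm70a and Tomm20, receptors of the import pore in the outer membrane, are the 2 that rose (0.51 and 0.36; Tomm20 was named after its values were seen, to complete the pair). In females the median of the same 27 genes was -0.18, with Atp5o at -0.55 (adjusted p = 0.203). With a gene length offset 11 fell and 3 rose in males (median -0.221), and without male control 4 and female control 2 the counts were 13 and 2. The median with 1 surrogate variable was -0.0734.

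**Figure D4:**
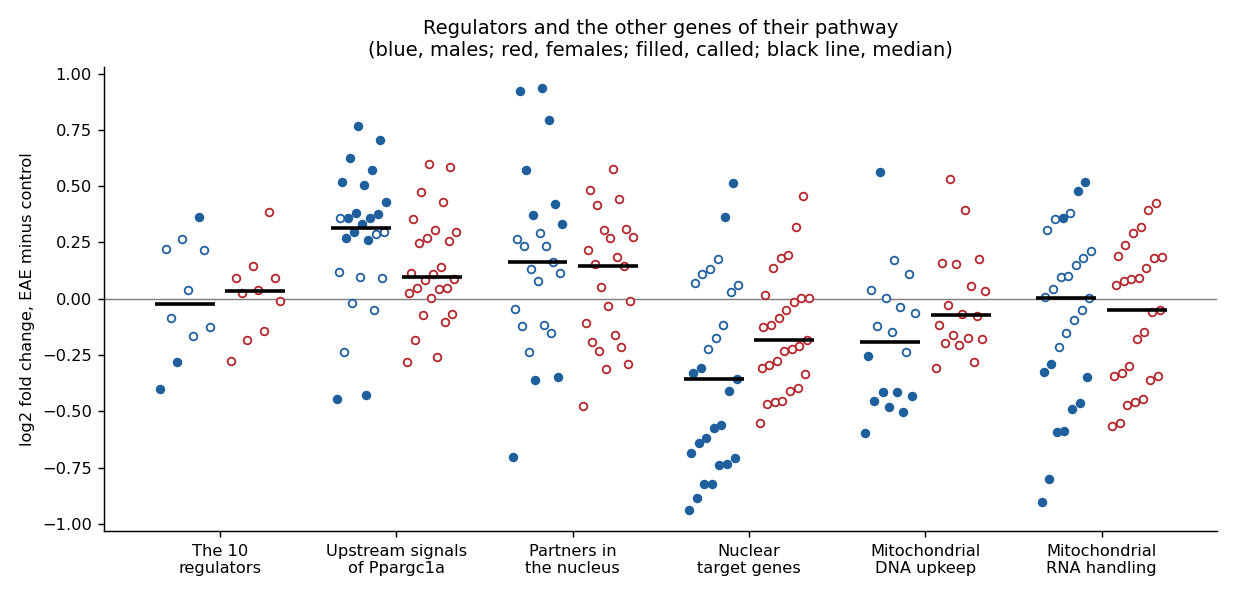
Log2 fold change, EAE minus control, of the 10 regulators and of 5 lists of genes from the same pathway (blue, males; red, females; filled, passed the test; black line, median of the list). The male median is 0.31 for upstream signals and -0.36 for nuclear target genes, with the 10 regulators between them at -0.02. No female point is filled.

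Proteins that copy and maintain mitochondrial DNA were lower more often than higher in males, with 8 of 18 measured genes lower and 1 higher (median -0.19), or 50% called against 39.6% of all genes. Leaving out male control 4 gave 4 lower genes, leaving out male EAE 5 gave 5, and a gene length offset also gave 5. Rnaseh1, which removes RNA primers, fell from a mean of 7.47 ± 0.841 (SD, n = 4) to 5.27 ± 0.905 CPM (SD, n = 5; log2 fold change -0.50), and Atad3a, a membrane ATPase that anchors nucleoids, from a mean of 21.4 ± 3.09 (SD, n = 4) to 15.3 ± 1.67 CPM (SD, n = 5; log2 fold change -0.48). Rrm2b, a subunit of ribonucleotide reductase that supplies nucleotides in non-dividing cells, rose from a mean of 24.9 ± 2.92 (SD, n = 4) to 36.8 ± 3.21 CPM (SD, n = 5; log2 fold change 0.56). Of 27 genes of transcription and RNA handling inside mitochondria, 9 fell and 3 rose with a median of 0.0034, or 44.4% called, near the 39.6% of all genes, and without male control 4 the counts were 7 and 1. Mrpl12, a ribosomal protein that also binds POLRMT, fell by 0.90 on the log2 scale, and Hsd17b10, a subunit of mitochondrial RNase P, by 0.80, while Mtpap, the mitochondrial poly(A) polymerase, rose from a mean of 15.1 ± 1.35 (SD, n = 4) to 19.4 ± 0.908 CPM (SD, n = 5; log2 fold change 0.36).
In female mice 0 genes on these 5 lists were called by edgeR's quasi-likelihood test. An unadjusted p under 0.05 was reached by 9 of 26 upstream signals, 7 of 23 partners, 12 of 27 targets, 1 of 18 genes of DNA upkeep and 12 of 27 genes of RNA handling, against 19.8% of all genes. DESeq2 called 4, 1, 1, 1 and 2 of them in that order (4.41% of all genes), and with independent filtering 5, 2, 1, 1 and 7 (8.83% of all genes). For the difference between the sexes edgeR called 0, with unadjusted p under 0.05 for 2, 0, 1, 0 and 1 genes, against 4.19% of all genes.
The transcripts that the machinery makes, those of the mitochondrial genome, were measured for 11 of 15 listed genes, of which 9 had a mean log2 CPM above 1. In no library did mt-Nd3 exceed 20 counts or mt-Nd4l 6 counts. How transcripts of the mitochondrial genome came into the pulldown on tagged Rpl22 was not tested. In males 2 were called lower (mt-Nd4 at -0.89 and mt-Rnr1 at -0.46), with medians of -0.49 in males and -0.52 in females. The 2 are 18.2% of those measured, against 39.6% of all genes called, and their number was unstable: 0 without male control 1, male control 4, male EAE 2 or male EAE 5, at a false discovery rate of 0.05 and with a gene length offset, 1 without male control 3, male EAE 1 or male EAE 4, 4 without male control 2, 5 without female control 1 or female EAE 4, 7 without male EAE 3 or with each sex fitted alone, and 8 with a GC offset. mt-Co2, mt-Atp8 and mt-Atp6 were listed at 0 in every library, and mt-Co3 did not exceed 3 counts in any. None of these genes was among the 11 measured, and their level is not known from these counts.

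Several of the regulators varied along the axis that separates the libraries, and this axis also separates the male groups. On the first principal component male controls lay between -60.1 and -1.90 and male EAE mice between 6.54 and 39.8. The female groups overlapped on it. In males the axis and EAE cannot be told apart. The correlation with this component was -0.90 for Esrra, 0.78 for Polrmt, 0.75 for Pprc1, 0.64 for Ppargc1a and -0.63 for Ppargc1b. For Nrf1 it was -0.61, for Tfb2m 0.57, for Gabpa -0.56, for Tfam 0.28 and for Tfb1m 0.0023. Over the 17 libraries the correlation with the slope of expression on exon length, a measure of whether a library holds more of long or of short transcripts, was -0.90 for Esrra, 0.82 for Polrmt, 0.79 for Pprc1, 0.68 for Ppargc1a and 0.18 for Tfam. It was -0.58 for Gabpa, -0.54 for Nrf1, -0.51 for Ppargc1b, 0.47 for Tfb2m and -0.13 for Tfb1m. The slope itself ran from -0.175 to 0.0245 in male controls and from 0.0243 to 0.139 in male EAE mice. The libraries share a common processing and differ in depth, so these coefficients are descriptions. Esrra and Polrmt were opposed (r = -0.81 over 17 libraries, -0.74 with group means removed and -0.57 without male control 4 and female control 2), and Pprc1 and Polrmt ran together (r = 0.77, 0.77 and 0.53 in the same order). Esrra and Gabpa had r = 0.72, which was 0.37 without those 2 libraries.
The genes with the pattern most like that of Ppargc1a over the 17 libraries, out of 13548 genes with a mean log2 CPM above 1, were Tmed5 (r = 0.89), Neurod1 (0.88), 9930021J03Rik (0.88), Lin54 (0.87) and Mia3 (0.87). Neurod1, a neuronal transcription factor, is one of the neuronal markers used here. Those most like Tfam were Sod2 (0.81), the manganese superoxide dismutase of mitochondria, ENSMUSG00000060214 (0.80), Ubfd1 (0.79), Bzw1 (0.79) and Cggbp1 (0.78).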

How the data were processed

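RNA bound to HA-tagged ribosomes of cortical neurons was sequenced from 17 mice. According to the study's methods and the submitters' processing notes, reads were demultiplexed with bcl2fastq 2.17, checked with FastQC, trimmed with Trimmomatic, and aligned to mm10 and counted per Ensembl gene with QuasR. The authors deposited the values as raw counts. The strand setting and annotation release are not given in the sources used here. The library kit marks strand, and RNA was selected by poly(A).

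Of 39017 rows, 37607 were given a symbol, an exon length and a position from GENCODE M21 (GRCm38). Genes with at least 1 count in at least 50% of the 17 libraries were tested. EdgeR 4.0.16 in R 4.3.3 (quasi-likelihood test, TMM scaling, 1 mean per group, Benjamini-Hochberg over all genes tested) gave fold changes and standard errors. CPM use the TMM-scaled library sizes. Ratios within a library (0.5 added to each count) were compared by exact permutation tests, two-sided. Intervals cover 95%. The edgeR, limma voom and DESeq2 fits and the gene length offset were run before use on simulated data with known changes, in which genes varied independently. The ratio tests, surrogate variable, GC offset and replicate block were not run on such data.

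The members and lists were chosen with earlier results of these data known. All 10 members are named. From each list at most 2 genes that rose and 2 that fell in males are named, those with the largest change among called genes whose groups did not overlap and whose mean log2 CPM was above 1. Similar genes are the 5 with the highest Pearson correlation of log2 CPM (1 added) for Ppargc1a and Tfam. Alternatives were DESeq2 1.42.0, limma voom (limma 3.58.1), edgeR's likelihood ratio test, other scalings, filters and thresholds, each sex fitted alone, 1 surrogate variable (sva 3.50.0), offsets for gene length or GC content, a replicate block, and leaving out libraries.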

Additional observations from a re-analysis of the deposited data

Results flagged for a closer look

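In 40 groups of 4 or 5 libraries, 1 for each regulator and group, 2 libraries stood apart from the rest of their group by Dixon's test. Chance gives about 1 in 20. Nrf1 was at 19.1 CPM in female control 2, where the other female controls lay between 17.8 and 17.9 CPM. Tfb1m was at 4.92 CPM in male control 3, where the other male controls lay between 4.51 and 4.55 CPM.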

How the results depend on the processing

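In males 3 regulators were called, 1 at a false discovery rate of 0.05, 1 without both male control 4 and female control 2 and 0 with 1 surrogate variable, and between 1 and 4 with 1 library left out (1 without male control 1, male control 4 or male EAE 5). Over the other settings but the replicate block the number was 2 to 4. In females it was 0, apart from 1 by DESeq2 with independent filtering, and for the difference between the sexes and between controls 0 throughout. Correlations of same-numbered libraries ran from -0.547 to 0.527 and did not settle whether the replicate numbers pair the mice. With the number as a replicate block 1 regulator, Esrra (-0.392, adjusted p = 0.028), was called in males. The male difference in the ratio of Ppargc1a to Ppargc1b was 0.552 on medians and 0.442 to 0.619 with 1 mouse left out, and missed the threshold in 8 of those 9 fits, all but the one without male EAE 3.
Directions turned only for values that had not passed, except Polrmt, and the cause was not tested. With 1 surrogate variable the male log2 fold changes were -0.0599 for Ppargc1a, -0.367 for Pprc1 and -0.0211 for Polrmt, and the female ones -0.116 for Ppargc1a, -0.184 for Pprc1, 0.034 for Gabpa, 0.00363 for Esrra and -0.182 for Polrmt. The differences between the sexes were then 0.0709 for Ppargc1b and -0.183 for Pprc1. A GC offset gave -0.0547 for Tfam in males and -0.0994 for Ppargc1a and -0.0121 for Tfb1m in females. A gene length offset gave -0.0194 for Ppargc1a in females and a difference of -0.126 for Nrf1. Gabpa in females was 0.0154 with upper quartile scaling, 0.000179 with mean log2 CPM above 1 and 0.0215 without both controls, where Ppargc1a was -0.0208 and Polrmt -0.0542. The difference for Ppargc1b turned to 0.00518 with DESeq2's size factors, 0.0243 with upper quartile scaling, 0.00533 by DESeq2 with or without filtering, 0.00853 with mean log2 CPM above 1, 0.0265 and 0.0455 with length and GC offsets and 0.0124 without both controls. With 1 library left out, female values ran from -0.0765 to 0.0232 for Gabpa, -0.0523 to 0.123 for Polrmt, -0.106 to 0.122 for Ppargc1a and -0.00315 to 0.212 for Pprc1. The differences ran from -0.0233 to 0.0693 for Nrf1, -0.108 to 0.104 for Ppargc1b, -0.0839 to 0.228 for Pprc1 and -0.0709 to 0.00906 for Tfam. Between controls they ran from -0.0816 to 0.0173 for Gabpa, -0.0323 to 0.252 for Polrmt, -0.0662 to 0.006 for Tfam and -0.0481 to 0.215 for Tfb1m.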
